A study of Mus musculus with 2 samples.

Results

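The *Hes* and *Hey* genes encode basic helix-loop-helix repressors, and the 9 mouse genes *Hes1*, *Hes2*, *Hes3*, *Hes5*, *Hes6*, *Hes7*, *Hey1*, *Hey2* and *Heyl* are described here for ES cells and for forebrain tissue of E10.5 embryos. They were taken by gene symbol, as the members of a known gene family, from RNA-seq tables that list the same 29311 genes for both samples. All 9 were found, each under a single identifier. ES cells were of the wild-type (WT) E14 line, grown without feeders in serum with LIF. The forebrain was wild-type (WT) tissue of B6CBAF1/J embryos at E10.5, a stage at which progenitor cells line the ventricle and the earliest neurons are leaving it. The protocols give the same number of cells as the source of RNA for both, whereas the methods describe forebrain RNA as taken from single embryos. There was 1 library per cell type and thus no replicate check. Strain, culture or dissection, and the extraction reagent (Trizol or Trizol LS) differed together with the cell type and cannot be told apart from it.

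When a Notch receptor is bound by a ligand of the Delta or Jagged type on a neighbouring cell, its intracellular part is released and joins the DNA-binding protein RBPJ and a Mastermind coactivator in the nucleus. *Hes1*, *Hes5* and the *Hey* genes are the best known genes switched on by this complex. HES1 and HES5 recruit Groucho (TLE) corepressors and repress proneural genes such as *Neurog2*, which keeps neural progenitors undifferentiated. HES6 differs from the others, as it antagonizes HES1 and favours neuronal differentiation. *Hes7* is known from the segmentation clock of the presomitic mesoderm, *Hes3* from the early neural tube and the isthmus, and the *Hey* genes from heart and blood vessels as well as neural tissue.

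The promoter letters are shown first, since RBPJ binding is what links *Hes1*, *Hes5* and the *Hey* genes to Notch. RefSeq windows of the GRCm38.p6 build were at hand for 4 members (*Hes5*, *Hes6*, *Hes7* and *Hey2*), with 2 windows for *Hes6*, and not for *Hes1*, *Hes2*, *Hes3*, *Hey1* and *Heyl*. The 250 bases before the annotated start were searched on both strands for TGGGAA, the core letters of the RBPJ motif, which reads TTCCCA on the other strand. The matching windows are printed 5′ to 3′ in the sense of the gene, with each match in capitals.
*Hes5* (chr4:154960673-154960922, plus strand): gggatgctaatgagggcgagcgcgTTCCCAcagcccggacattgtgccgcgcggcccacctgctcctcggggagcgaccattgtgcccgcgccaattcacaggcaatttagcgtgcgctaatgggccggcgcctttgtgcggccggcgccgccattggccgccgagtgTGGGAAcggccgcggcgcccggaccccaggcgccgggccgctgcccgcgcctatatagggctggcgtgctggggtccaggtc
*Hey2* (chr10:30842784-30843033, minus strand): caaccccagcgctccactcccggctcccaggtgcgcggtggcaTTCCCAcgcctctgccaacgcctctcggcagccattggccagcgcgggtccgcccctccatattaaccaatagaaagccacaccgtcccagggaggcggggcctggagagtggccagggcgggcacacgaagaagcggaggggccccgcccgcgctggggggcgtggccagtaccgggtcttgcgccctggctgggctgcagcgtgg
*Hes7* (chr11:69120203-69120452, plus strand): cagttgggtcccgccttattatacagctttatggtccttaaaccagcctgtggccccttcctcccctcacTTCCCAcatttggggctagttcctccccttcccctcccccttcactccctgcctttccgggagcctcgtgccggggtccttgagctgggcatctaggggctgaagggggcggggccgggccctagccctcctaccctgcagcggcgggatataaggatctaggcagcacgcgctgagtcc
*Hes5* held 2 matches in opposite orientation, which begin 226 and 82 bases before the start. *Hey2* and *Hes7* held 1 match each, 207 and 180 bases before the start, and both *Hes6* windows held 0. Of 32851 RefSeq windows of this length, 21.6% hold at least 1 match and 2.77% hold at least 2. Of the 4 members with a window, *Hes5* was the only one with a pair of matches. These letters are a description and do not show that RBPJ binds there. HES proteins themselves bind the N-box (CACNAG) and the class C site (CACGNG), which 36.7% and 23.5% of all windows hold on either strand. *Hes7* held 1 N-box and 2 class C matches, *Hes6* 1 of each in different windows, and *Hes5* and *Hey2* 0. In *Hes7* the N-box match lies on the same bases as 1 of its class C matches.

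RPKM, reads per kb of exon as scaled by the authors, is comparable between genes of a library because it is divided by exonic length. The low values lay on steps that correspond to single reads, so that the reads behind each value could be inferred. Totals on genes were 42764458 for the ES cell library and 59781474 for the forebrain library. A single read on 1 kb of exon stood for 1.2214 in ES cells and 0.8191 in forebrain. At these totals, RPKM in its usual unit, which is also divided by library depth, would be far lower. The values called RPKM here keep the authors' scale and cannot be compared with RPKM of other studies. Intervals in what follows are exact 95% intervals for the counting of the inferred reads. They cover neither variation between cultures or embryos nor duplicate reads from PCR. The labels were checked against markers, which were also chosen with earlier results of these data known. All 8 ES cell markers were at least 2-fold higher in ES cells (449.74 to 11505.32 RPKM against 0.67 to 58.93) and all 8 forebrain markers were at least 2-fold higher in forebrain (15.86 to 876.64 against 0 to 17.54). The forebrain sample also held 4 of 4 head mesenchyme markers at 399.55 to 1556.07 RPKM, against 2.91 to 12.84 in ES cells. In ES cells the mesoderm gene *T* stood at 1112.09 and the neuronal gene *Stmn2* at 6910.29, both above forebrain (2.66 and 1056.31). In bulk samples, a gene expressed in few cells and a gene with little RNA per cell cannot be told apart.

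All 9 members had a value above 0 in both libraries. In forebrain all 9 rested on at least 3 reads, the smallest number taken as detected, and in ES cells 7 did. *Hes3* and *Heyl* had 2 reads each in ES cells. Summed RPKM was 1035.0 in ES cells, from 1671 reads, and 4064.96 in E10.5 forebrain, from 9058 reads, a ratio of 3.93. Differences were taken on log2(RPKM + 1), where those of low genes come out too small. On this scale 6 members were at least 2-fold higher in forebrain (*Hes3*, *Hes5*, *Hes6*, *Hey1*, *Hey2* and *Heyl*). Of all listed genes, 25.8% were. The ratio of *Hes3*, from 2 and 10 reads, has a counting interval that includes 1. *Hes2* was the only member at least 2-fold higher in ES cells, compared with 23.3% of all listed genes, and *Hes1* and *Hes7* lay within 2-fold. Among 17736 protein-coding genes with at least 3 reads in either sample, the shares were 30.0% for forebrain and 19.1% for ES cells. At least 4-fold higher in forebrain were 4 members (*Hes5*, *Hey1*, *Hey2* and *Heyl*), against 14.4% of listed genes, and 0 members were 4-fold higher in ES cells, against 11.3%. *Hes6*, with an RPKM ratio of 4.01, fell just short of 4-fold on the scale of log2(RPKM + 1). The median difference of the 9 genes (forebrain minus ES cells) was 2.00 on the log2 scale, while it was 0.01 over all listed genes and 0.21 over the protein-coding genes.

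**Figure D1:**
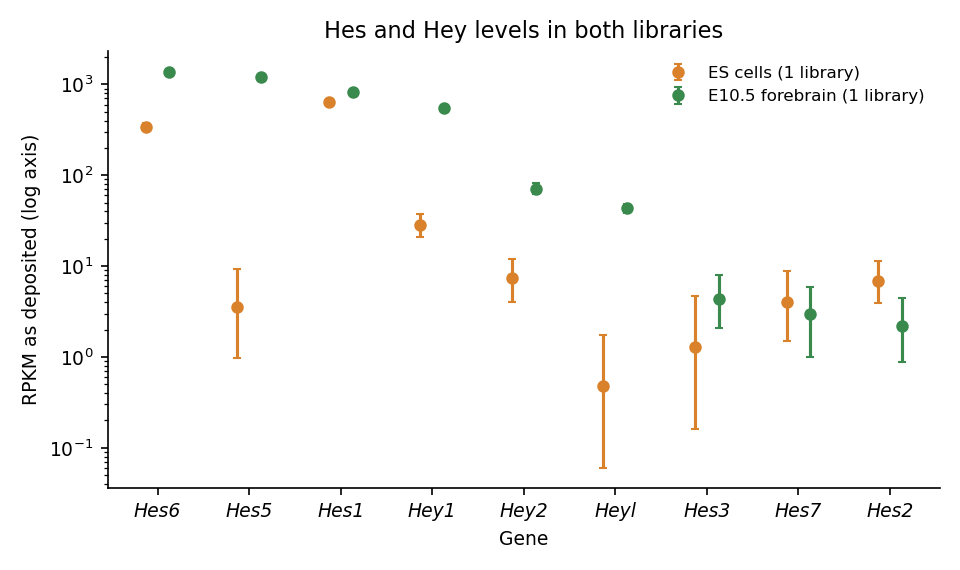
RPKM of the 9 genes (log axis) in ES cells (orange) and E10.5 forebrain (green), 1 library each; bars are exact 95% counting intervals of the inferred reads. *Hes6* and *Hes1* are high in both libraries, *Hes5* goes from 3.58 to 1198.59, and the intervals of *Hes3*, *Hes7* and *Hes2* overlap between the libraries.

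*Hes1* (ENSMUSG00000022528, chromosome 16, 30064470 to 30067882, plus strand, NCBIM37), a Notch effector whose level is known to oscillate in neural progenitors and in ES cells, was the highest member in ES cells. It had 641.3 RPKM from 1070 reads (603.7 to 681.2) in ES cells and 819.89 from 2039 reads (784.73 to 856.32) in forebrain. The 2 intervals did not overlap, but the ratio was small, 1.28-fold (1.19 to 1.38) in favour of forebrain. It stood at percentile 80.2 of the listed protein-coding genes in ES cells and 84.1 in forebrain. *Hes1* was therefore abundant in both samples, and its ratio placed it near the middle of protein-coding genes (percentile 54.4).

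*Hes5* (ENSMUSG00000048001, chromosome 4, 154335032 to 154336480, plus strand), the effector that carries much of the Notch response of neural progenitors, differed most. Its RPKM was 3.58 from 4 reads (0.98 to 9.18) in ES cells. In forebrain it was 1198.59 from 1994 reads (1146.32 to 1252.13). The ratio was 335-fold, with a counting interval of 130 to 1230 that is wide because of the 4 reads. The difference on the log2 scale, 8.03, was the 44th largest among the 17736 protein-coding genes. Within ES cells *Hes1* was 179-fold above *Hes5*, whereas in forebrain *Hes5* was 1.46-fold above *Hes1*. Of the 4 members with a promoter window, *Hes5* is the one with 2 RBPJ core matches, and *Hes1* and *Hey1* had no window to search. A link between these matches and its level was not tested.

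A processed transcript on the opposite strand, RP24-89N4.5 (ENSMUSG00000092483), shares 433 exonic bases with *Hes5*, or 31.8% of the exonic length of *Hes5* and 64.4% of its own. It was listed at 0 in ES cells and had 638.7 RPKM from 524 reads in forebrain. The libraries were strand-specific, but whether the counting used the strand is not given in the sources used here. Reads from the shared bases can thus not be told apart between these genes, and their part in the *Hes5* value was not tested.

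*Hes6* (ENSMUSG00000067071, chromosome 1, 93308060 to 93310615, minus strand), the antagonist of HES1, was the highest member in forebrain. It took the second place in ES cells, where it had 341.68 RPKM from 506 reads (312.69 to 372.95). In forebrain it had 1368.85 from 3021 reads (1320.32 to 1418.39), and the intervals lay far apart. The ratio was 4.01-fold (3.64 to 4.41). *Hes6* was below *Hes1* in ES cells, by 1.88-fold, and above it in forebrain, by 1.67-fold. Neither of its promoter windows holds the RBPJ core letters.

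The 3 *Hey* genes, which encode repressors related to HES proteins, were all higher in forebrain. *Hey1* (ENSMUSG00000040289, chromosome 3, 8663362 to 8667039, minus strand), a Notch effector of vessels and neural precursors, had 28.26 RPKM from 51 reads (21.05 to 37.18) in ES cells and 553.62 from 1489 reads (525.88 to 582.5) in forebrain, 19.6-fold higher (14.8 to 26.4). *Hey2* (ENSMUSG00000019789, chromosome 10, 30552165 to 30562607, minus strand), required for the heart ventricle and for arterial identity, had 7.42 from 15 reads (4.02 to 11.85) and 71.31 from 222 reads (62.24 to 81.34), 9.61-fold higher (5.89 to 18). *Heyl* (ENSMUSG00000032744, chromosome 4, 122910799 to 122927118, plus strand), best known from the smooth muscle of vessels, had 0.48 from 2 reads (0.06 to 1.73) and 43.25 from 270 reads (38.25 to 48.73). Its ratio of 90.1 has a counting interval of 24.8 to 751. Summed, the *Hey* genes stood at 36.16 in ES cells and 668.18 in forebrain, 18.5-fold apart, and the 6 *Hes* genes at 998.84 and 3396.78, 3.4-fold apart. The order *Hey1*, *Hey2*, *Heyl* was the same in both libraries, and the *Hey1* values make up most of each *Hey* sum.

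Because the *Hey* genes mark vessels too, the vascular markers are given beside them. Of 5 endothelial markers, 4 (*Cdh5*, *Kdr*, *Tek* and *Tie1*) were at least 2-fold higher in forebrain. Their list summed to 603.25 RPKM in ES cells, of which *Pecam1* made up 551.14, and to 1895.32 in forebrain. All 4 mural cell markers were at least 2-fold higher in forebrain, with sums of 150.04 and 1057.9. No marker of either list was at 0 in either library, but *Rgs5* had only 1 read in ES cells, too few to be taken as detected. Head mesenchyme markers, given above, were higher in forebrain too (4 of 4, with sums of 26.97 and 3091.95). The part of vascular and mesenchymal cells in the *Hey* values was not tested.

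**Figure D2:**
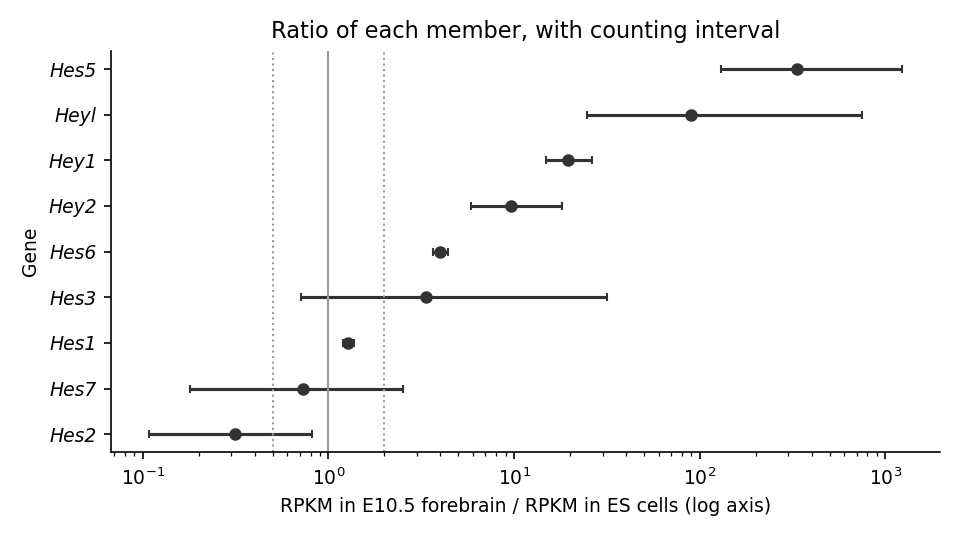
RPKM in E10.5 forebrain divided by RPKM in ES cells for each gene (log axis), with exact 95% counting intervals; the solid line marks equal values and the dotted lines 2-fold. The intervals of *Hes5*, *Heyl*, *Hey1*, *Hey2*, *Hes6* and *Hes1* lie above 1, that of *Hes2* lies below 1, and those of *Hes3* and *Hes7* include 1.

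*Hes2*, *Hes3* and *Hes7* stayed below 10 RPKM in both libraries. *Hes3* (ENSMUSG00000028946, chromosome 4, 151660081 to 151665771, minus strand), which acts with *Hes1* and *Hes5* in the early neural tube, had 1.29 RPKM from 2 reads (0.16 to 4.67) in ES cells and 4.34 from 10 reads (2.08 to 7.97) in forebrain. The ratio of 3.36 has an interval of 0.715 to 31.5, so a difference was not detectable at this depth. Of 7 markers of midbrain, isthmus and hindbrain, where *Hes3* is best known, 4 were at least 2-fold higher in forebrain (among them *En1*, *Pax2* and *Pax5*) and 1 in ES cells (*Hoxa2*). *En2*, the most abundant of them in ES cells, had 44.35 RPKM there and 24.74 in forebrain, and *Egr2* had 10.78 and 9.24. The sums of the list were 70.99 RPKM in ES cells, with *Pax2* at 0, and 80.35 in forebrain, with *Hoxa2* at 0. Their part in the *Hes3* value was not tested.

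*Hes7* (ENSMUSG00000023781, chromosome 11, 68933906 to 68937557, plus strand), the clock gene of the presomitic mesoderm, had 4.05 RPKM from 6 reads (1.49 to 8.82) in ES cells and 2.94 from 6 reads (1.0 to 5.91) in forebrain. ES cells were 1.38-fold higher, with an interval of 0.399 to 5.58 that includes equal values. A lincRNA on the opposite strand (9130213A22Rik) shares 234 exonic bases with *Hes7* and had 3 and 4 reads. As whether the counting used the strand is not given, reads from the shared bases cannot be told apart here either. Their part in the *Hes7* values was not tested. Among the 4 listed markers of presomitic mesoderm and somites, *Tbx6* had 78.5 RPKM in ES cells and 46.99 in forebrain, *Mesp2* 7.57 and 2.54, *Meox1* 3.84 and 24.26, and *Ripply2* 0 and 3.26. *Msgn1* of the same list is not in the tables. The part of such cells in the *Hes7* values was not tested.

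*Hes2* (ENSMUSG00000028940, chromosome 4, 151532976 to 151536578, plus strand) was the only member with a higher value in ES cells beyond counting error. It had 6.94 RPKM from 15 reads (3.89 to 11.45) in ES cells and 2.17 from 7 reads (0.87 to 4.48) in forebrain. ES cells were 3.2-fold higher, with an interval of 1.23 to 9.26, and the intervals of the single values overlapped. A stretch of 69 bases in its transcript matched 1033 other places of the genome (at least 50 bases at 90% identity), and whether reads of these places entered its values was not tested. For *Hes7*, 2 such places were found, and 0 for the other 7 members.

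The make-up of the family output differed between the samples. In ES cells *Hes1* held 62% of the summed RPKM and *Hes6* 33.0%, followed by *Hey1* with 2.73%, and *Hes5* held 0.346%. In forebrain *Hes6* held 33.7%, *Hes5* 29.5%, *Hes1* 20.2% and *Hey1* 13.6%. These 4 genes together held 98.1% in ES cells and 96.9% in forebrain. The share of *Hes6* thus stayed near 33%, while that of *Hes1* was lower in forebrain although its RPKM was higher. The *Hey* genes held 3.49% of the sum in ES cells and 16.4% in forebrain. In ES cells the first 3 places (*Hes1*, *Hes6* and *Hey1*) were separated beyond their counting intervals, and neighbours among the other 6 genes overlapped. In forebrain the first 6 places (*Hes6*, *Hes5*, *Hes1*, *Hey1*, *Hey2* and *Heyl*) were each separated from the next, and *Hes3*, *Hes7* and *Hes2* were not.

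**Figure D3:**
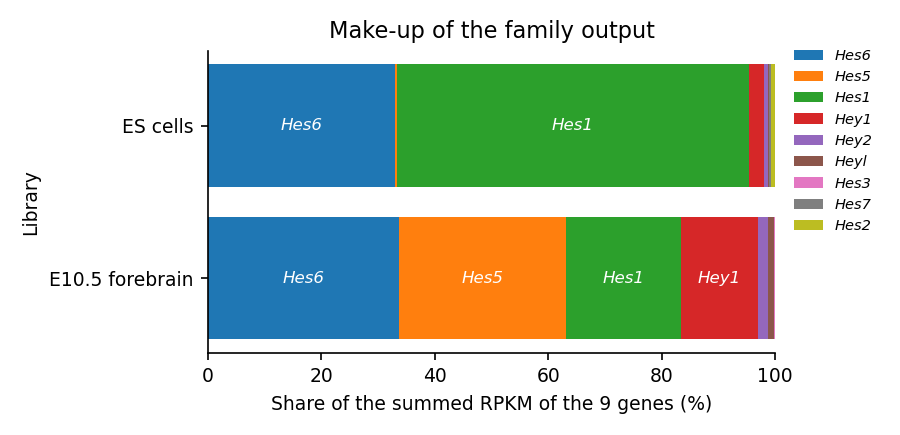
Share of each gene in the summed RPKM of the 9 genes (%), ES cells above and E10.5 forebrain below. In ES cells *Hes1* (62%) and *Hes6* (33.0%) fill most of the bar, and in forebrain it is divided among *Hes6* (33.7%), *Hes5* (29.5%), *Hes1* (20.2%) and *Hey1* (13.6%).

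Among all protein-coding genes with at least 3 reads in either sample, the differences of the members spread from percentile 15.1 (*Hes2*) to 99.8 (*Hes5*). *Heyl* stood at percentile 96.4, *Hey1* at 94.5, *Hey2* at 90.2, *Hes6* at 82.9 and *Hes3* at 73.8, and *Hes7* at 33.1. The genes most like the leading members over the 2 samples, by distance on log2(RPKM + 1), were *Snrpb2*, *Apoo-ps* and *Snapin* for *Hes1* and *Papss1*, *H2-Ke6* and *D930015E06Rik* for *Hes6*. The distances were 0.014 to 0.022 and 0.058 to 0.1. With 2 samples such a likeness says only that the levels were alike.

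**Figure D4:**
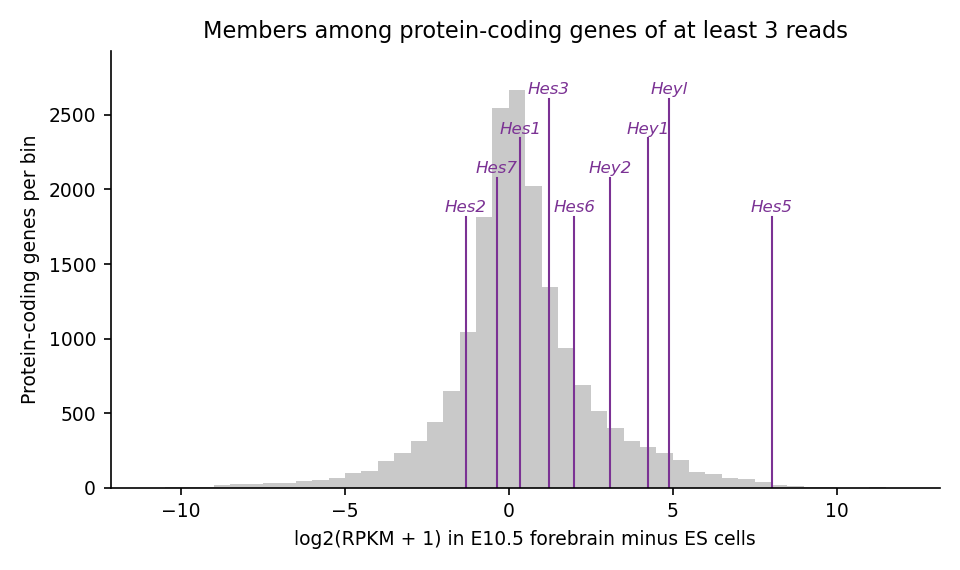
Difference in log2(RPKM + 1) between E10.5 forebrain and ES cells for 17736 protein-coding genes with at least 3 reads in either sample (grey, number per bin of the histogram), with the 9 members as vertical lines whose heights carry no value. The members reach from -1.32 (*Hes2*) to 8.03 (*Hes5*), and 7 of them lie above 0.

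The genes upstream of the family and its partners were taken from 8 lists with 55 genes, all of which are in the tables. The lists were chosen with earlier results of these data known, so their counts are a description only. Of these, 29 were at least 2-fold higher in forebrain and 3 in ES cells, with a median difference of 1.09 on the log2 scale. The shares of protein-coding genes with at least 3 reads past the same fold were 30.0% for forebrain and 19.1% for ES cells, and those of all listed genes 25.8% and 23.3%. Among Notch receptors, 3 of 4 were at least 2-fold higher in forebrain. *Notch2* was the most abundant, with 158.51 RPKM in ES cells and 752.39 in forebrain (4.75-fold), and *Notch1* (112.25 and 483.01) and *Notch3* (97.21 and 487.9) were 4.3-fold and 5.02-fold higher. *Notch4* had 56.19 and 72.35. Among 7 ligands and ligand-like genes, 5 were at least 2-fold higher in forebrain. They include *Dlk2*, with 6 and 21 reads and a ratio interval of 0.916 to 7.11 that includes equal values. *Dll1*, the main ligand of neural progenitors, went from 10.42 to 781.81 (75-fold, interval 54.1 to 107), whereas *Jag1* had 375.25 and 464.23. *Jag1* was thus the highest ligand in ES cells and *Dll1* in forebrain.

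Of 14 modifiers and protease genes, 5 were at least 2-fold higher in forebrain and 0 in ES cells, where the share of protein-coding genes higher in forebrain was 30.0%, so the forebrain count is near the background. The 5 genes include the fringe glycosyltransferases *Lfng* (22.2 and 391.06) and *Mfng* (42.14 and 463.64), the sheddase gene *Adam10* (167.07 and 908.49), and *Mib1* (966.07 and 2232.18), whose product triggers ligand endocytosis. Of 9 genes of the nuclear complex, 4 were higher in forebrain, the Mastermind genes *Maml1*, *Maml2* and *Maml3* and the feedback gene *Nrarp*, itself a Notch target (49.82 and 685.71, 13.8-fold). *Rbpj* lay on the other side, with 576.92 in ES cells and 446.05 in forebrain, a ratio of 0.773 (0.734 to 0.814). The DNA-binding partner was thus present in both samples at levels within 2-fold. At least 2-fold higher in forebrain were 3 receptors, *Dll1*, *Nrarp* and 6 members, with *Hes3* within counting error. Of the 55 genes of the 8 lists, 23 lay within 2-fold, among them *Notch4*, *Jag1*, *Jag2* and *Ep300*. A link between the levels of these genes and those of the members was not tested. Nor was the part of vascular and mesenchymal cells in their forebrain values tested.

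Of 6 Groucho corepressor genes, *Tle1* and *Tle2* were at least 2-fold higher in forebrain and *Tle6* in ES cells (144.9 and 24.01). The most abundant, *Aes*, had 1981.81 in ES cells and 2650.48 in forebrain, and *Tle4* had 1127.13 and 768.64. Of 4 *Id* genes, which encode helix-loop-helix inhibitors without a DNA-binding region, 3 were at least 2-fold higher in forebrain, among them *Id2* (69.21 and 1760.08) and *Id4* (128.34 and 2435.81). The 3 other genes of the Orange-domain class differed among themselves. *Helt* was listed at 0 in ES cells and had 22.48 in forebrain, at least 9.39-fold higher when 3 reads are taken as the floor in ES cells. *Bhlhe40* was higher in ES cells (124.62 and 24.91), and *Bhlhe41* had 4.68 and 8.89.

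Most proneural genes, which HES proteins repress, were higher in forebrain, as were 6 of the 9 members. These members include *Hes6*, the antagonist of HES1, and *Hes3*, whose ratio interval includes equal values. Of 8 proneural genes, 6 were at least 2-fold higher in forebrain and 1, *Atoh1*, in ES cells (5.85 from 10 reads and 0.78 from 2 reads). The 6 include *Atoh7*, with 2 and 9 reads and a ratio interval of 0.625 to 28.7 that includes equal values. *Neurog2* had 0.55 RPKM from 1 read in ES cells and 399.98 from 1087 reads in forebrain. *Neurog1* had 1.47 and 79.98, and *Neurod4* 0.37 and 80.83. In forebrain *Hes6*, *Hes5*, *Hes1* and *Hey1* stood above each of the 8 proneural genes, of which *Neurog2* was the highest. The 4 markers of young neurons summed to 7717.08 in ES cells, of which *Stmn2* made up 6910.29, and to 4900.78 in forebrain, where *Tubb3*, *Dcx* and *Elavl3* were at least 2-fold higher.

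**Figure D5:**
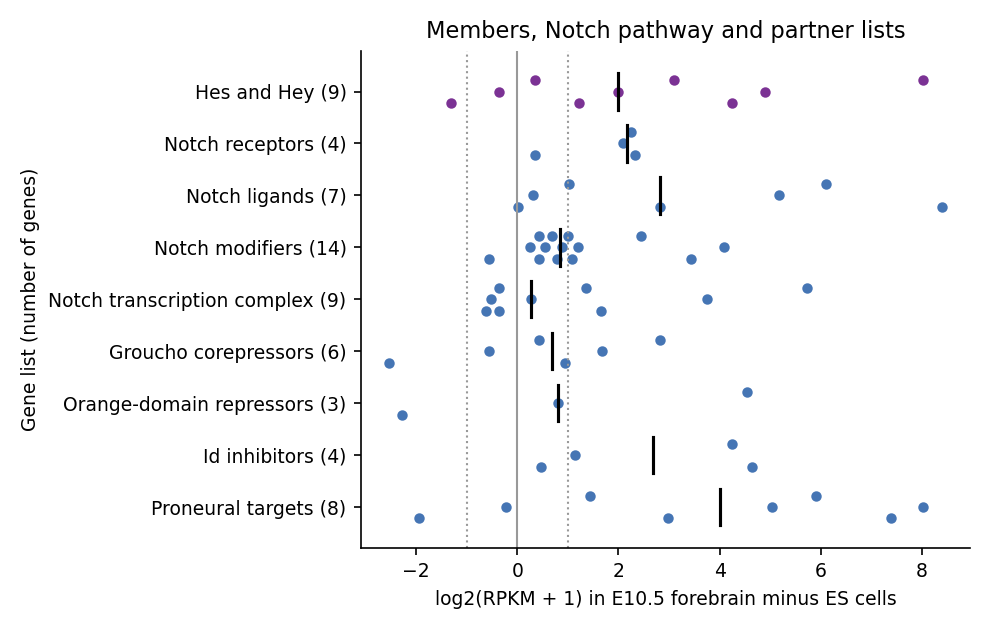
Difference in log2(RPKM + 1) between E10.5 forebrain and ES cells for the 9 members (purple) and for 8 lists of Notch pathway and partner genes (blue), 1 point per gene, with the median of each list as a black bar; dotted lines mark 2-fold. The median is highest for the proneural genes (4.01) and lowest for the nuclear complex (0.27), and that of the members is 2.00.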

How the data were processed

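The tables hold 1 RNA-seq library per cell type. The authors removed rRNA from total RNA, made strand-specific libraries read from a single end, and aligned them to NCBIM37 (mm9) through HTSstation. RPKM values were deposited for each gene. Bowtie 0.12.7 is named in the submitters' processing notes. How reads were counted, and how the samples were scaled, is not given in the sources used here. Read length is 50 bp in the methods and 100 bp in the labels.

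All 29311 genes have the coordinates of GENCODE M1 (NCBIM37), which gave exonic lengths (union of exons). The RPKM values times exonic length in kb lay on steps of 1.2214 in ES cells and 0.8191 in forebrain (genes of at most 2500 bp). Of low values, 66.5% and 69.3% lay within 0.05 of a whole multiple. The step was taken as 1 read, and reads were rounded to the nearest whole number. *Hes7* in forebrain (6.49) and *Hey2* in ES cells (15.49) lay between whole reads. Single values carry exact Poisson intervals, and ratios exact conditional binomial intervals. Differences were taken on log2(RPKM + 1), with 2-fold as the fixed size. No test between samples was made, as there are no replicates.

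The members, the lists and the rule for named genes (all members, at most the 3 highest genes of each list plus those past 2-fold that a result turns on, and promoters with an RBPJ core match) were chosen with earlier results of these data known. The protein-coding background, the N-box and class C searches, and the neighbouring genes were added after seeing the data. Steps and intervals were tested on simulated data. Alternatives were other pseudocounts, folds and scalings, and leaving out the highest member. Copies elsewhere in NCBIM37 were searched with blastn 2.17.0. Tables were handled with pandas 2.3.3, intervals with scipy 1.17.1 and numpy 2.4.6, and plots with matplotlib 3.10.9, under Python 3.11.15. No other column of the tables holds a measurement. Values of some single genes of the lists are not reported here.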

Additional observations from a re-analysis of the deposited data

How the results depend on the processing

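Of 99 alternative values, 87 stayed within counting error, or within 1.5 times for a count, 12 moved further, and 0 reversed a direction. A reversal could be scored only for the median and for members past 2-fold, so most of the 99 could not show it. Alternatives with a floor of reads or RPKM in either sample dropped no member, so the values of the members could not differ under them. The sign of the difference of all 9 members was the same under each of the 45 alternatives run on them. A pseudocount cannot change this sign, and the scalings changed the ratios by factors of only 0.941 to 1.21. With a pseudocount of 5 in place of 1, or at 4-fold, the count of members higher in ES cells was 0 instead of 1. The pseudocount of 5 also lowered the count higher in forebrain from 6 to 5, as the difference of *Hes3* became 0.57 on the log2 scale. When each sample was scaled to the sum of its values, the median difference of all listed genes moved by 0.25 on the log2 scale, that of the members became 2.27 and the ratio of the summed RPKM 4.75. This ratio was 3.69 with scaling to the upper quartile and 4.19 when divided by the total of reads on genes. Without *Hes6*, the member with the highest RPKM, the median difference was 2.16. By reads not divided by exonic length, 2 members changed place in the ES cell order and 6 in the forebrain order. The 9 genes are few, low values rest on 2 to 15 reads, and 1 library per cell type gives no measure of the variation between cultures or embryos.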

Other observations

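The nearest listed protein-coding gene on either side of each member was examined to see whether the differences extend beyond the family, a step chosen after the data were seen. Of these 18 neighbours, 5 were at least 2-fold higher in forebrain, 5 in ES cells and 8 in neither. Of protein-coding genes with at least 3 reads in either sample, 30.0% were higher in forebrain and 19.1% in ES cells. Of all listed genes, 25.8% and 23.3% were. With 18 neighbours, neither count is set apart from these shares. *Hes5* lies between *Tnfrsf14*, 32.4 kb away and listed at 0 in ES cells and 171.17 RPKM in forebrain, and *Pank4*, 1.8 kb away with 520.28 and 871.35. *Gpr153*, 0.6 kb from *Hes3*, had 17.49 in ES cells and 178.63 in forebrain, compared with 1.29 and 4.34 for *Hes3*. *Hey1* lies between *Stmn2* (101.8 kb) and *Mrps28* (135.1 kb), both higher in ES cells, at 6910.29 against 1056.31 and 2002.04 against 776.2. *Hes2* lies 6.5 kb from *Espn*, which was also higher in ES cells (21.54 and 5.0). On chromosome 4, *Hes2* and *Hes3* are 123.5 kb apart, and *Hes3* and *Hes5* 2669.3 kb, and the differences of these 3 genes range from -1.32 to 8.03 on the log2 scale.

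Of 19620 listed protein-coding genes, only 4 others combined an RPKM in ES cells no higher than that of *Hes5* with one in forebrain no lower. They are *Fbn2*, *Hbb-b2*, *Lum* and *Slc4a1*, named after their values were seen. *Hbb-b2* and *Slc4a1* are known from red blood cells and *Fbn2* and *Lum* from extracellular matrix. The corresponding numbers were 108 genes for *Hes6*, 116 for *Hey1*, 161 for *Heyl*, 540 for *Hey2*, 577 for *Hes1* and 1009 for *Hes3*. In the opposite direction, no lower in ES cells and no higher in forebrain, they were 619 for *Hes2* and 1002 for *Hes7*.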
